A study of Mus musculus with 2 samples.

Results

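The genes described here are 10 genes of the actin cytoskeleton: the cytoplasmic actins Actb and Actg1, the monomer-binding genes Pfn1, Cfl1, Tmsb4x and Tmsb10, the coronin Coro1a, and 3 subunit genes of the Arp2/3 complex, Arpc1b, Arpc2 and Arpc3. They were taken by symbol from the gene list of both matrices, where all 10 were found once each among 48825 features. The genes were selected on expression values measured in these same libraries, with no stated threshold, so their levels and the differences between the libraries are a description with no test attached. The data are single-cell RNA-seq of dissociated parotid gland, the serous salivary gland, from female wild-type C3H mice. The library named IR, for irradiation, came from mice whose head and neck received 6 Gy per day on 5 days, 30 Gy in total, at 6 to 10 weeks of age, and whose glands were collected 10 months later. The control library came from non-irradiated mice. Each library was made from the glands of 2 mice pooled before capture, so there was 1 library per condition and no spread between animals could be measured. All intervals below are 95% intervals that cover counting error only.

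Actin filaments are polymers of globular actin, and they carry cell shape, migration, adhesion and the movement of secretory granules. Profilin, the product of Pfn1, delivers actin monomers to growing filament ends, cofilin, from Cfl1, severs old filaments, and the thymosins, from Tmsb4x and Tmsb10, hold monomers in reserve. The Arp2/3 complex starts new filaments as branches from existing ones, and coronin 1A, from Coro1a, is a partner of that complex found mainly in blood-derived cells. In salivary acinar cells the filaments lie densest under the apical membrane, where granules are released, whereas lymphocytes and myeloid cells keep large pools of actin for migration and synapse formation.

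After barcodes with under 200 genes or over 5% mitochondrial UMIs were left out, 3378 control and 5286 IR cells remained, with medians of 2908 and 2462 UMIs (unique molecular identifiers, 1 per captured mRNA molecule). The 10 genes held 226810 UMIs in the control library and 376491 in the IR library, 1.19% and 1.85% of all UMIs in cells. Cells were clustered without these 10 genes and without 71 further actin genes, so that the classes were not drawn from the levels compared. Of the labelled tissue, the defining markers were present: all 8 acinar markers were high in the acinar-like cluster, acinar cells being the source of the secreted proteins (384 control and 380 IR cells) and all 7 Etv1+ markers in the cells named by Etv1 (271 and 266). The Etv1+ cluster also had 8 of 8 acinar, 7 of 7 myoepithelial and 4 of 6 intercalated duct markers high. The intercalated duct-like cells (103 and 123) had 6 of 6 markers high, and the striated duct-like cells (93 and 78) had 3 of 6, with Klk1 and Fxyd2 among their top genes, but also 5 of 6 intercalated duct and 3 of 4 red blood cell markers. Immune classes held 2278 control and 4022 IR cells. The kept cells of the libraries had 3 barcode sequences in common.

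In GENCODE M21 (GRCm38), Actb is at chr5:142903115-142906754 on the minus strand, Arpc1b at chr5:145114215-145130705 and Arpc3 at chr5:122391878-122414184, both on the plus strand. Actg1 is at chr11:120345690-120348542 and Pfn1 at chr11:70651850-70654644, both on the minus strand, with Cfl1 at chr19:5490455-5495201 and Arpc2 at chr1:74236084-74268209 on the plus strand. Tmsb4x (chrX:167207093-167209315), Tmsb10 (chr6:72957347-72958748) and Coro1a (chr7:126699773-126707787) are on the minus strand.

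Actb with Actg1, and Tmsb4x with Tmsb10, are pairs of related genes whose values differ below, and their coding sequences are shown to let a reader see how far each pair can be told apart. The first 60 coding bases of the actins, from GENCODE M21 transcripts, are given 5′ to 3′ with the 9 bases that differ between them in capitals.
Actb: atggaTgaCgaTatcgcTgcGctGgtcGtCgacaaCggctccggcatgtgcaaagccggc
Actg1: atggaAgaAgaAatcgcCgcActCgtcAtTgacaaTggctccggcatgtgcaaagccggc
Over the whole coding sequence of 1128 bases the actins differed at 128 positions (88.7% identity), and the longest run that they shared was 62 bases. In the 3′ untranslated parts the longest shared run was 11 bases. The whole coding sequences of the thymosins, 135 bases each, differed at 40 positions, in capitals here, and shared no run over 10 bases.
Tmsb4x: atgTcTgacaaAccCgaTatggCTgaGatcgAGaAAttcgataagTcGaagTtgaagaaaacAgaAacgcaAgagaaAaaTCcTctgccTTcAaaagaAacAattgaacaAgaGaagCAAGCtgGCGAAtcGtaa
Tmsb10: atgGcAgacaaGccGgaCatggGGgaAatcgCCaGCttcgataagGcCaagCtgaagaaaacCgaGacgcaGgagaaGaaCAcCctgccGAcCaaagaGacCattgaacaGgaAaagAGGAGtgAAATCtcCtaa
The values of the members of a pair are therefore given apart below. How the authors' counting treated reads that also match processed pseudogenes of these genes was not tested.

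Of the members with an entry in the RefSeq promoter table, Actg1 was the one with a CArG box, the binding motif of serum response factor, in the sequence before its start. Of the 250 bases before each start in that table (GRCm38.p6), searched on both strands, 1.47% of 32851 promoters held the motif. Entries were found for 9 members, 1 of them with the motif. Actb had no entry and was not searched. For Actg1, the 203 bases of chr11:120348543-120348745 on the minus strand, which end at the GENCODE start of the gene, are shown with the CArG box in capitals.
Actg1: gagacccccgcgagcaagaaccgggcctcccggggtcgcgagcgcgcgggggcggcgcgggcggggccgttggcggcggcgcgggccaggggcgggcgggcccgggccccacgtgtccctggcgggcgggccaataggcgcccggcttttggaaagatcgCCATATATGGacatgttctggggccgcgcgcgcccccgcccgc
The match ends 80 bases before the RefSeq start and describes the letters only.

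The levels of the 10 genes were far apart between epithelial and immune classes. Summed over the members, the control library held 1895 CPM (UMIs of the genes per 1000000 UMIs of the class) in acinar-like cells, 2715 in Etv1+ cells and 25367 in immune classes pooled, a ratio of acinar-like to immune of 0.0747. The lowest immune class was the Lef1 cluster of T-like cells with 19999 CPM, and the highest was the dendritic-like class with 44586. Stromal-like and endothelial-like cells, which belong to neither group, were at 12967 and 23913 CPM in control. A high level was thus not particular to immune classes. Secretory genes made up 83.4% of UMIs in control acinar-like cells and 6.68% in immune classes, which lowers every other gene's CPM in the former. When the total excluded the abundant genes (secretory, mitochondrial, haemoglobin and Gm42418), the ratio was 0.415. The sum in acinar-like cells thus remained below that in immune classes on both scales. Actg1 did not: without the abundant genes it was at 4037 CPM in control acinar-like cells and 4687 in Etv1+ cells. In control immune classes it was at 3402 on that scale.

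Among single genes, Tmsb4x was the most abundant member in control acinar-like cells and in pooled immune classes, while Actg1 stood above it in Etv1+ cells. The control level of Tmsb4x was 731 CPM in acinar-like cells (interval 700.3 to 762), 819 in Etv1+ cells and 10851 in immune classes, and it reached 22938 in macrophage-like and 25818 in dendritic-like cells. Tmsb10, its close relative, had another order: 44.2 CPM in acinar-like cells, 2545 in immune classes, 3376 in the Lef1 T-like cluster, and only 565 in macrophage-like and 720.0 in dendritic-like cells. Myeloid classes thus stood highest for one thymosin and lowest among immune classes for the other. Coro1a was at 8.44 CPM in acinar-like cells (25 UMIs) and at 732 in immune classes, with its highest level, 886, in B-like cells. The other members lay between 28.4 CPM (Arpc2) and 51.3 (Arpc3) in control acinar-like cells, apart from the actins, and between 471 (Arpc1b) and 885 (Cfl1) in control immune classes.

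**Figure D1:**
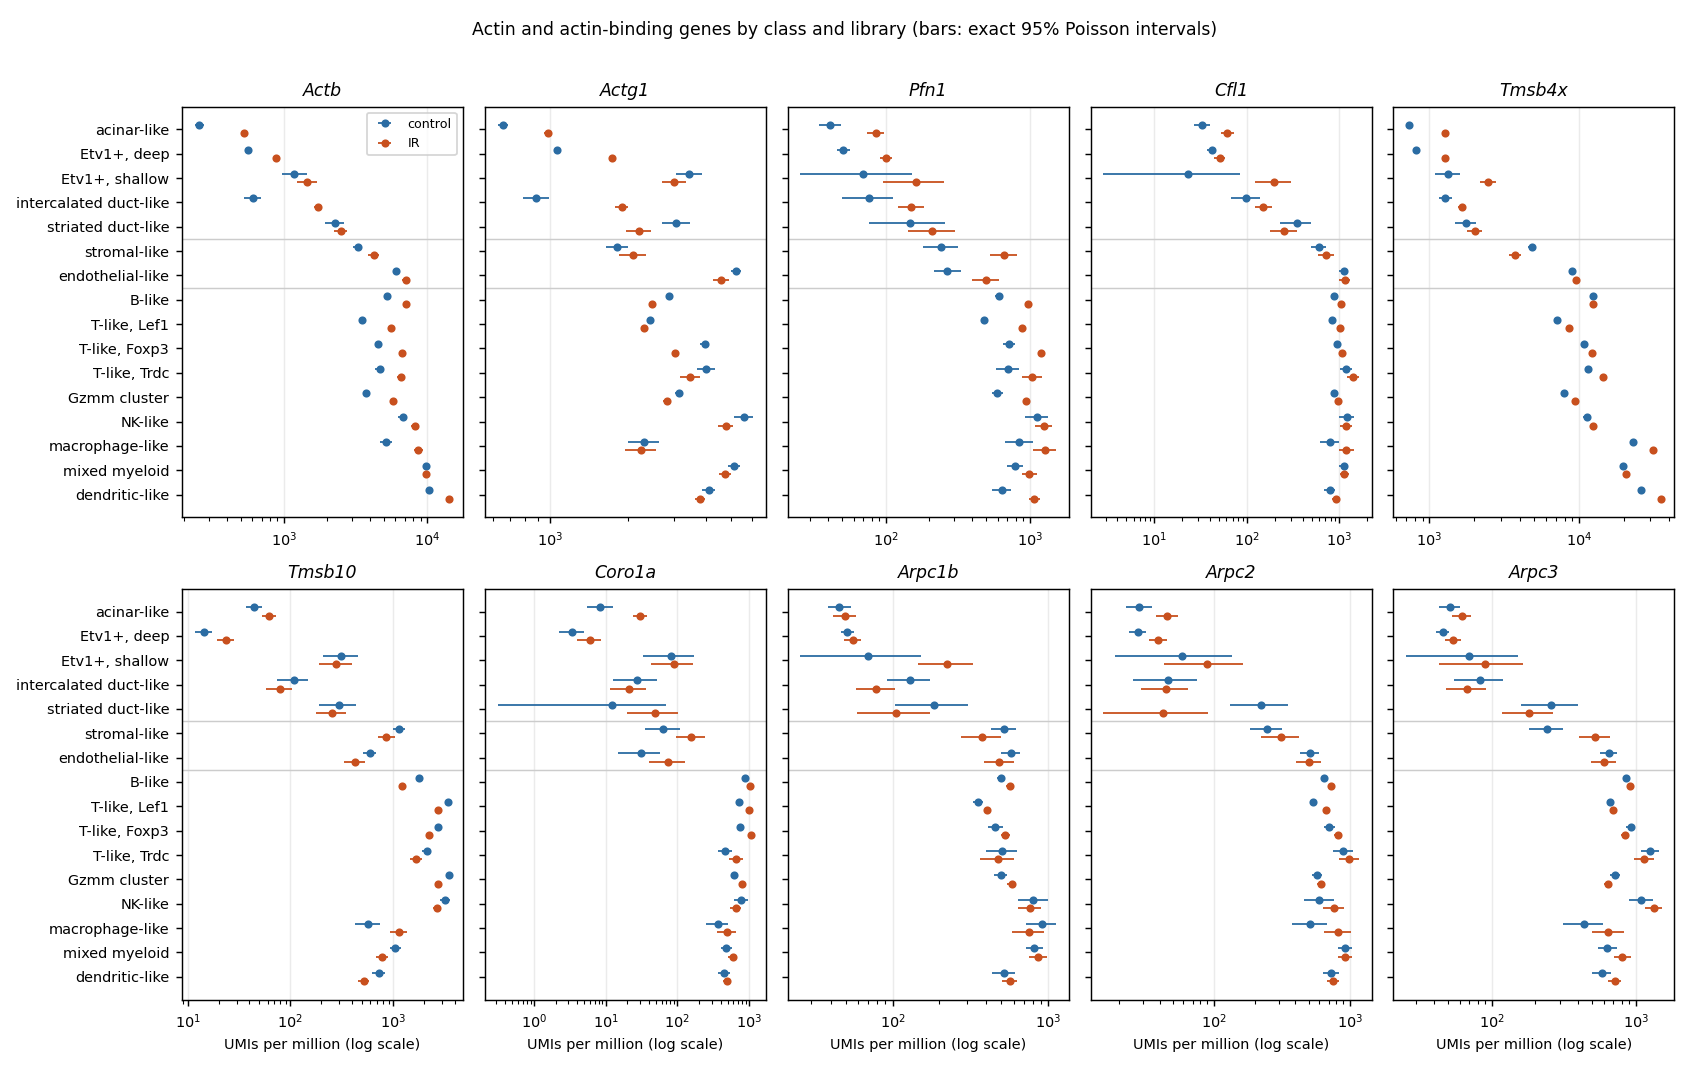
Level of each of the 10 genes in 16 classes of cells (rows), in CPM on a log axis, for the control library (blue) and the IR library (orange), 1 library each, with exact 95% Poisson intervals. Epithelial classes are above the upper grey line and immune classes below the lower one, and in the control library every gene is lowest in an epithelial class.

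The balance of the actins divided the same classes. In control acinar-like cells Actg1, at 655 CPM, stood above Actb, at 257, so that 0.393 Actb UMIs were counted per Actg1 UMI (interval 0.361 to 0.427). In Etv1+ cells the ratio was 0.524, in intercalated duct-like cells 0.688 and in striated duct-like cells 0.739. All immune classes had more Actb than Actg1, from 1.15 Actb UMIs per Actg1 UMI in the Foxp3 T-like cluster to 2.50 in dendritic-like cells. Stromal-like (1.81) and endothelial-like cells (1.15) also had more Actb than Actg1 in control, so this was not particular to immune classes. The ratio does not depend on the denominator, and since a UMI marks a molecule it needs no correction for length. In the IR library it was higher in 15 of the 16 named classes, with intervals apart in 12. It was 0.539 in IR acinar-like cells and 2.47 in immune classes, against 1.57 in control immune classes. The exception was the deep part of the Etv1+ cells, with 0.530 in control and 0.509 in IR. By a list of 17 pan-immune genes, described below, immune RNA would carry 37.4% and 39.6% of Actb in control and IR acinar-like cells. For Actg1 it would carry 9.34% and 8.63%. Acinar-like droplets with no UMI of that list held 441 Actb and 1292 Actg1 UMIs in control, and 741 and 1849 in IR. The ratios of IR over control there were 1.80 for Actb and 1.54 for Actg1, against 2.05 and 1.496 in all acinar-like cells.

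**Figure D2:**
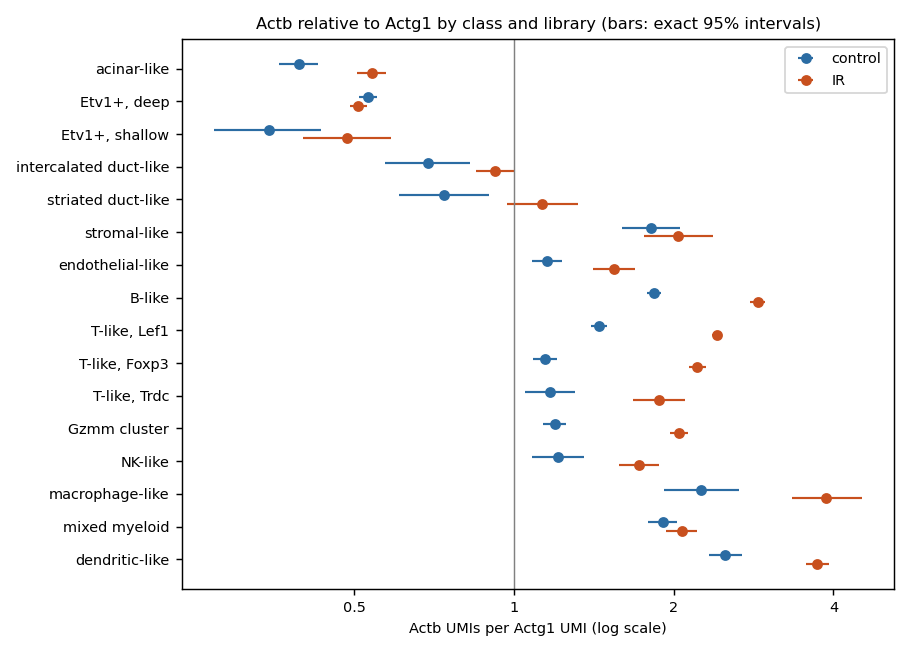
Actb UMIs per Actg1 UMI in 16 classes (rows), on a log axis, for the control library (blue) and the IR library (orange), with exact 95% intervals. Epithelial classes lie near or below 1 and immune classes above it, and IR points lie to the right of control points in all classes but the deep Etv1+ cells.

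In acinar-like cells the summed members were at 1895 CPM in control and 3180 CPM in IR, a ratio of 1.68 (interval 1.62 to 1.74). Secretory genes were 83.4% and 81.1% of UMIs there, and the median gene had a ratio of 1.25. For all acinar-like cells, the ratios of the sum and of each member are therefore also given over that median. The ratio of the sum was 1.48 without the abundant genes and 1.35 over the median gene. Of the 10 members, 6 were at least 1.5 times higher in IR and 0 at least 1.5 times lower, where 27.9% of 4252 genes with at least 20 UMIs were higher and 4.16% lower by the same rule. Without the abundant genes the counts were 5 higher, beside 18.1% of genes, and 0 lower, beside 8.01%. Over the median gene they were 4 higher, beside 12.9%, and 0 lower, beside 12.1%. Since values of these libraries chose the genes, nothing is read from the counts.

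Actb had 762 UMIs in control and 1429 in IR acinar-like cells, 257 and 528 CPM, a ratio of 2.05 (1.88 to 2.24) and 1.65 over the median gene. Actg1 went from 655 to 979.8 CPM, a ratio of 1.496 (1.41 to 1.59) and 1.32 without the abundant genes. Over the median gene the Actg1 ratio was lower, at 1.19996 (1.131 to 1.273). Both actins were thus higher in IR on every scale, Actb by more. Among the monomer-binding genes, Pfn1 (122 and 230 UMIs) had a ratio of 2.06 (1.65 to 2.59), Cfl1 (97 and 167) of 1.88 (1.46 to 2.45) and Tmsb4x (2165 and 3452) of 1.75 (1.65 to 1.84). For these 3 genes the ratios over the median gene were 1.65, 1.51 and 1.40. Tmsb10, with 131 and 169 UMIs, had a ratio of 1.41 (1.12 to 1.79), and without the abundant genes its interval (0.984 to 1.58) held 1. Its ratio over the median gene was 1.13. Of the Arp2/3 subunits, Arpc2 had 84 and 123 UMIs (ratio 1.60, with an upper bound of 2.14 and 1.29 over the median gene), while the intervals of Arpc1b (1.09, 0.849 to 1.39) and Arpc3 (1.21, 0.966 to 1.52) held 1, and over the median gene both were under 1, at 0.871 and 0.970. Coro1a had the highest ratio, 3.59 (2.27 to 5.87) and 2.88 over the median gene, from 25 and 82 UMIs.

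**Figure D3:**
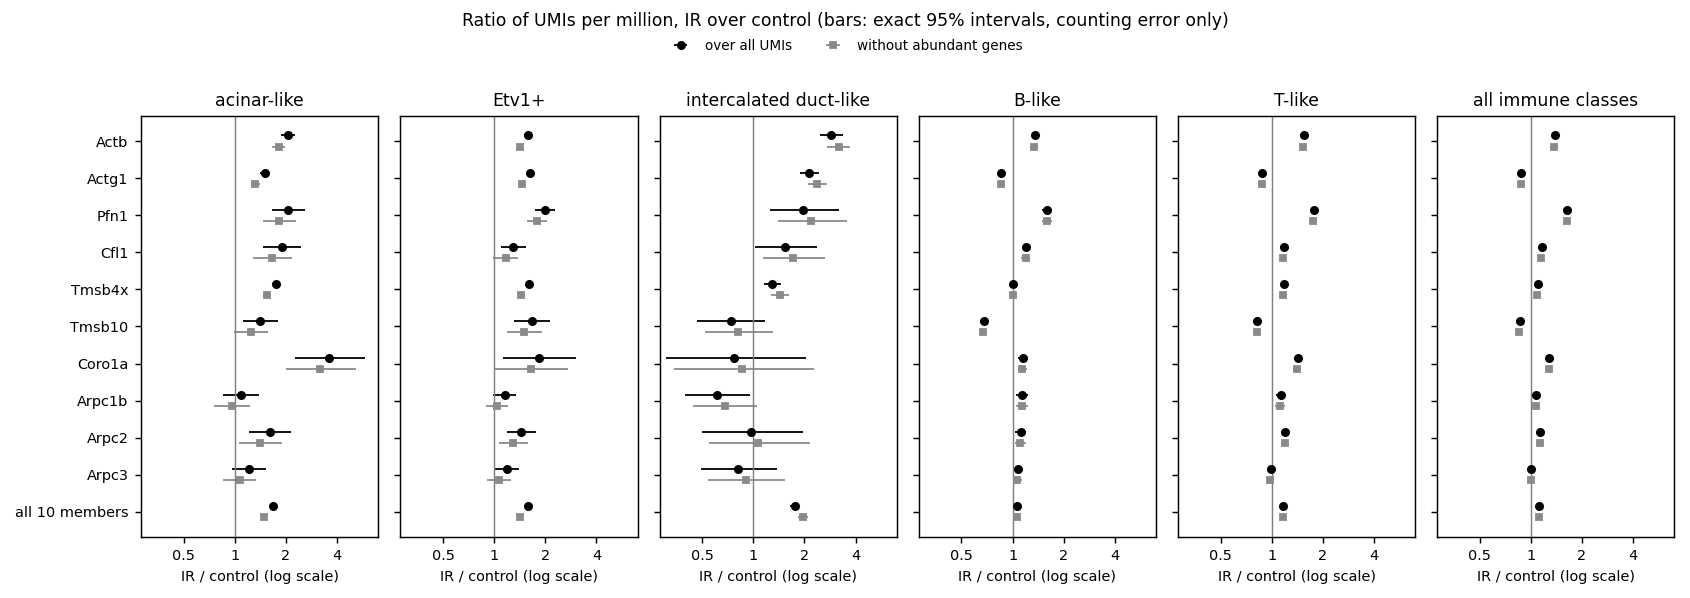
Ratio of IR over control for each gene and for their sum (rows) in 6 groups of cells (panels), on a log axis, over all UMIs (black) and without the abundant genes (grey), with exact 95% intervals for counting error. Actg1 and Tmsb10 lie right of 1 in acinar-like and Etv1+ cells and left of 1 in B-like, T-like and pooled immune cells.

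Coro1a, a gene of blood-derived cells, was read next to immune genes in the same droplets. In cells with at least 1000 UMIs, thinned to 1000, it was detected in 1.36% of 367 control and 4.202% of 357 IR acinar-like cells, against 51.5% and 58.5% of immune cells. Without thinning the shares were 4.69% and 13.7% of acinar-like cells, at medians of 5144 and 5363 UMIs. A list of 17 pan-immune genes gave the same direction. All 17 had UMIs in acinar-like cells of both libraries, and 16 had a higher CPM in IR, with an interval above 1 in 8. The median gene with at least 20 UMIs had a ratio of 1.25 there, so a ratio above 1 was the usual case. Without a minimum of UMIs, 11 of the 17 were at least 1.5 times higher, beside 27.9% of genes with at least 20 UMIs. The sum of the 17 was 143 CPM in control and 261 in IR, a ratio of 1.82 (1.61 to 2.06) and 1.46 over the median gene. Among the genes named by their level there were Srgn, a granule proteoglycan (33.4 and 43.2 CPM), Cd52, a surface peptide of lymphocytes (14.5 and 38.8), and Limd2 (12.8 and 21.8). The others were Cytip (12.8 and 15.1), the leukocyte phosphatase Ptprc (12.5 and 22.5) and the tetraspanin Cd53 (10.8 and 27.3). Over the median gene the intervals of Cd52 (ratio 2.14) and Cd53 (2.03) stayed above 1. Those of Srgn (1.04), Limd2 (1.36), Cytip (0.947) and Ptprc (1.45) held 1. T-cell and B-cell gene lists were higher as well, by 2.33 and 2.29 times, or 1.86 and 1.84 over the median gene.

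The pan-immune sum in acinar-like cells was 1.995% of its level in immune classes in control and 3.15% in IR. Immune RNA of that amount would carry 506 of the 1895 CPM of the members in control and 891 of the 3180 CPM in IR, 26.7% and 28.02%. Set against the difference between the libraries, it matched 385 of 1285 CPM, 29.95%. The share of the difference was 26.1% by the T list, 45.3% by the B list and 48.6% by Coro1a. Coro1a is itself a member with the highest ratio, and its own level is matched in full by definition. The genes differed widely in this. For Actg1 the matched part was 9.34% in control and 8.63% in IR, for Tmsb4x 29.6% and 29.3%, and for Actb 37.4% and 39.6%. For Tmsb10 it was 115% and 110%, so by this list its whole level in acinar-like cells was no higher than immune RNA would carry. In control the part was 46.9% by the B list, 66.4% by Coro1a and 85.2% without the highest doublet scores. For Coro1a it was 173% in control and 97.2% in IR. After subtraction, 161 and 319 CPM of Actb were left (ratio 1.98), 594 and 895 of Actg1 (1.51) and 514 and 902 of Tmsb4x (1.75). With Coro1a alone as the gauge, chosen after the data were seen, the matched parts of the sum were 15.4% and 28.8%, and the remainders had ratios of 1.55 for Actb and 1.44 for Actg1.

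**Figure D4:**
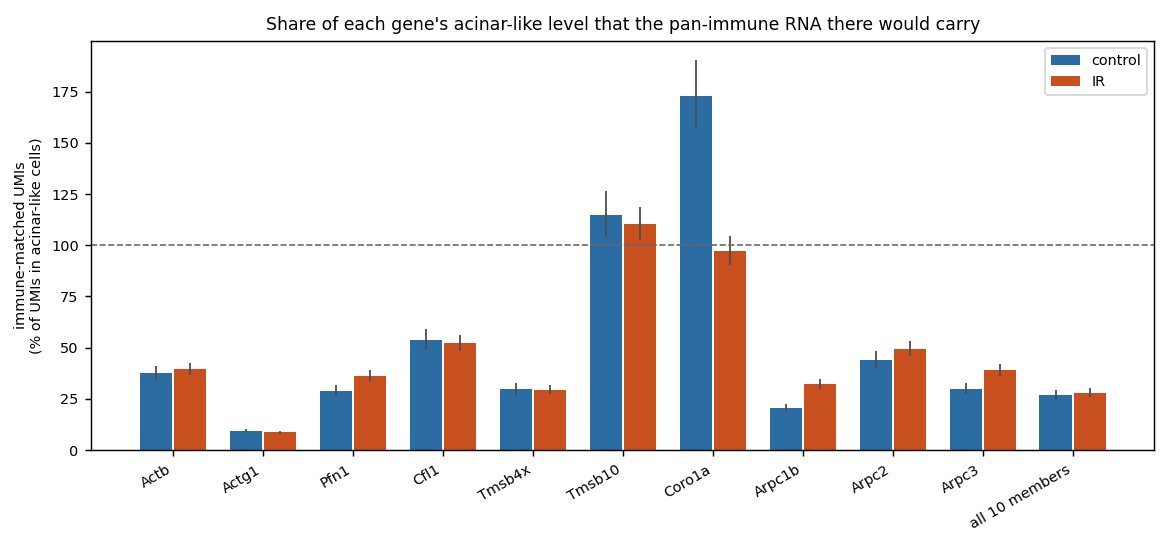
Part of each gene's level in acinar-like cells that the pan-immune RNA measured there would carry at the mix of the immune classes (bars, in % of the gene's CPM), for the control library (blue) and the IR library (orange), with error bars from the exact 95% interval of the pan-immune ratio. Actg1 is lowest, at 9.34% and 8.63%, and Tmsb10 passes the dashed line at 100% in both libraries.

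The immune RNA lay unevenly over the droplets. No pan-immune UMI was found in 286 control and 266 IR acinar-like cells, 74.5% and 70.0%, and these were no shallower (medians of 5368 and 5729 UMIs). In them the sum of the members still had a ratio of 1.60 (1.54 to 1.67), Actb of 1.80 (1.60 to 2.03), Actg1 of 1.54 (1.43 to 1.65) and Tmsb4x of 1.63 (1.52 to 1.75). Coro1a was still found there, with 7 and 23 UMIs (ratio 3.52, 1.46 to 9.73). Tmsb10 was at 16.1 and 18.8 CPM there, with a ratio of 1.17 (0.709 to 1.94). In the droplets with at least 1 such UMI, Tmsb10 was at 107 and 167 CPM. The ratio of the sum in those droplets was 1.83 over all UMIs and 1.43 (1.354 to 1.510) without the abundant genes. In the droplets with no such UMI it was 1.499 (1.435 to 1.565) without the abundant genes. The order of the 2 kinds of droplets thus turned with the scale. When cells in the top 6% of doublet scores were removed from each library and the rest clustered again, pan-immune RNA in acinar-like cells was at 43.2 and 106 CPM. The matched part of the sum was 8.78% in control and 12.9% in IR, while the ratio of the sum was 1.63 (1.57 to 1.69) and that of Actb 1.87 (1.69 to 2.07). The Coro1a ratio was then 5.51, from 9 and 45 UMIs. Whether the remaining immune RNA was free RNA was not tested.

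In Etv1+ cells, a secretory population that the study named by the transcription factor gene Etv1, the sum of the members was 2715 CPM in control and 4310 in IR, a ratio of 1.59 (1.56 to 1.62). It was 1.43 without the abundant genes and 1.34 over the median gene. The count at least 1.5 times higher was 6, beside 20.8% of 8871 genes, with 0 lower, beside 4.71%. It was 3 without the abundant genes, beside 13.5% higher and 7.28% lower, and 2 over the median gene (Pfn1 and Coro1a), beside 9.81% and 9.89%, with 0 members lower on both scales. Actg1 stood above Actb again, 1086 CPM in control and 1760.0 in IR (ratio 1.62, 1.57 to 1.67), while Actb went from 569 to 894 CPM (1.57, 1.51 to 1.64). Pfn1 was at 51.0 and 102 CPM, from 389 and 488 UMIs, with an interval of its ratio of 1.75 to 2.29. Tmsb4x had one of 1.60 (1.54 to 1.65) and Cfl1 of 1.30 (1.10 to 1.53), with an interval that held 1 without the abundant genes. The pan-immune sum in Etv1+ cells was 64.5 CPM in control and 85.4 in IR, and it matched 8.38% and 6.76% of the members' level, or 4.01% of the difference. By the T list it was 9.07% of the difference and by the B list 14.4%, and the T list itself went from 80 to 206 UMIs, a ratio of 4.10 (3.16 to 5.38). For Tmsb10 (17.7 and 29.7 CPM) the part matched by the pan-immune list was 129% and 76.0%, and for Coro1a (4.32 and 7.94) 152% and 121%. The T list gave lower parts, 42.1% and 57.1% for Tmsb10 and 49.5% and 91.2% for Coro1a. By the B list they were 71.7% and 92.9% for Tmsb10 and 84.3% and 148% for Coro1a.

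The Etv1+ cells fell into deep and shallow cells, with medians of 37254 and 1030 UMIs in control and 18795 and 965 in IR. They differed in more than depth. Secretory genes were 75.7% of UMIs in deep and 45.4% in shallow cells in control, and 73.3% and 46.4% in IR. The deep cells had 8 of 8 acinar, 7 of 7 myoepithelial and 4 of 6 intercalated duct markers high. The shallow cells had 1 of 8, 0 of 7 and 0 of 6. The deep cells (207 control and 180 IR) carried nearly all UMIs and gave ratios of 1.63 for Actg1 and 1.57 for Actb. In the shallow cells Actg1 was at 3442 and 3007 CPM, a ratio of 0.874 (0.745 to 1.02), and Actb at 1186 and 1459 (1.23, 0.954 to 1.59). The difference of Actg1 in the whole class thus rests on the deep cells, whose depth also differed between the libraries.

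In intercalated duct-like cells the actins had their highest ratios among the 16 named classes. Actb was at 607 CPM in control and 1737 in IR, a ratio of 2.86 (2.46 to 3.35), and Actg1 at 882 and 1886, a ratio of 2.14 (1.88 to 2.44). Pan-immune RNA was at 199 and 229.6 CPM there, and it matched 4.46% of the Actb difference. Tmsb4x had a ratio of 1.29 (1.15 to 1.45), and Tmsb10 (35 and 48 UMIs), Coro1a (9 and 13), Arpc2 and Arpc3 had intervals that held 1. Arpc1b was lower in IR, 129 against 78.7 CPM (0.612, 0.396 to 0.949), with an interval that held 1 without the abundant genes. The count at least 1.5 times higher was 4, beside 19.3% of 1512 genes, with 1 lower, beside 18.9%. It was 4 again without the abundant genes (beside 25.7% higher and 12.9% lower, with 0 members lower) and over the median gene (beside 19.4% and 18.8%, with 1 lower). These cells were shallower in control, with a median of 1265 UMIs against 4825. In striated duct-like cells the direction turned with the denominator: the ratio of the sum was 0.913 (0.830 to 1.01) over all UMIs and 1.53 (1.39 to 1.68) without the abundant genes, as secretory genes were 28.4% of UMIs in control and 56.8% in IR. Immune RNA differed between the libraries too, in a direction that depended on the list. The pan-immune list had 16 UMIs in control and 92 in IR there (197 and 645 CPM, ratio 3.28) and the T list 7 and 65 (ratio 5.29). The B list went the other way, with 8 and 3 UMIs (ratio 0.214, 0.0365 to 0.890), and its interval held 1 without the abundant genes. The part of immune RNA in the result was not tested.

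In immune classes the members divided into genes that were higher and genes that were lower in IR. Pooled over immune classes, Pfn1 was at 598 CPM in control and 977 in IR (ratio 1.63, 1.58 to 1.69) and Actb at 4822 and 6650.0 (1.38, 1.36 to 1.40). Coro1a had a ratio of 1.28 (1.24 to 1.32). Actg1 went the other way, from 3066 to 2688 CPM (0.877, 0.861 to 0.892), and so did Tmsb10, from 2545 to 2191 (0.861, 0.844 to 0.878). Over the median gene, which had a ratio of 1.12, Pfn1, Actb and Coro1a stayed above 1, at 1.46, 1.23 and 1.14, and Actg1 and Tmsb10 below it, at 0.781 and 0.767. Tmsb4x crossed 1, from 1.09 to 0.974, and the Arp2/3 subunits lay between 0.893 and 1.01. In the single immune classes Tmsb4x was above 1 over all UMIs in 9 of 9. Over each class's median gene its interval was above 1 in 6 of them and below 1 in 1. The pool changed in make-up, from 989 to 2480 T-like cells and from 838 to 836 B-like cells between control and IR. Pooled ratios include that change. The sum of the members, 1.12, came to 0.995 over the median gene. By the 1.5-fold rule 1 member, Pfn1, was higher, beside 14.9% of 12375 genes, and 0 lower, beside 6.04%. Without the abundant genes it was again 1 (14.4% higher and 6.08% lower), and over the median gene 0 (8.86% and 9.05%).

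The same genes led in the single immune classes. Actb had a ratio above 1 in all 9 immune classes, from 1.01 in the mixed myeloid cluster to 1.68 in macrophage-like cells, with an interval above 1 in 8. Pfn1 was likewise above 1 in 9 of 9, from 1.12 in NK-like cells to 1.84 in the Lef1 T-like cluster. Actg1 was below 1 in 9 of 9, with an interval below 1 in 8, and lowest at 0.768 in the Foxp3 T-like cluster. Tmsb10 was below 1 in 8 of 9 with intervals below 1, lowest at 0.676 in B-like cells, and the exception was the macrophage-like class, where it went from 53 to 109 UMIs, a ratio of 2.01 (1.43 to 2.84). Immune classes of 1 library share its handling, so these are not separate replicates.

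In B-like cells the sum of the members had a ratio of 1.07 (1.05 to 1.08), and 0.964 over the median gene. Actb was at 5269 CPM in control and 7102 in IR (1.35, 1.32 to 1.38) and Pfn1 at 606 and 966 (1.59, 1.49 to 1.71). Tmsb4x, the most abundant, was at 12321 and 12367 CPM, a ratio of 1.004 (0.987 to 1.02). Tmsb10 was at 1793 and 1212 (0.676, 0.643 to 0.710). By the same rule 1 member, Pfn1, was higher, beside 14.4% of 8781 genes, and 0 lower, beside 5.31%. The count higher was 1 without the abundant genes (14.2% higher, 5.33% lower), and over the median gene 0 were higher and 1, Tmsb10, lower (10.2% and 9.28%). In T-like cells the sum had a ratio of 1.17 (1.16 to 1.18), and 1.01 over the median gene. In T-like cells 2 members, Actb (3799 and 5856 CPM, ratio 1.54) and Pfn1 (546 and 967 CPM, ratio 1.77), were at least 1.5 times higher, beside 18.7% of 10396 genes, and 0 lower, beside 4.33%. The count was 2 again without the abundant genes (17.4% higher, 4.53% lower) and 1, Pfn1, over the median gene (10% and 8.28%). Coro1a, which T-cells need for survival and migration, was at 710 and 1006 CPM (ratio 1.42, 1.35 to 1.49).

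Over all UMIs the ratio of Actg1 and that of Tmsb10 lay above 1 in acinar-like cells and below 1 in immune cells. For Tmsb10 the acinar-like interval held 1 without the abundant genes (0.984 to 1.58), over the median gene (0.896 to 1.43) and in droplets with no pan-immune UMI. By the pan-immune list immune RNA matched 99.6% of the Tmsb10 difference. That share depended on the gauge: it was 79.4% by the T list, 221% by the B list and 228% by Coro1a. Immune RNA in which Actg1 was lower in IR matched under 10% of its acinar-like level in either library, and matched 7.20% of the difference, or 15.4% by the B list and 15.9% by Coro1a. Whether the directions differ by more than the spread between mice cannot be tested with 1 library per condition.

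The wider list of 71 actin genes was looked at in the same way. In acinar-like cells 40 of them had at least 20 UMIs, of which 16 were at least 1.5 times higher in IR, beside 27.9% of all genes, and 0 lower, beside 4.16%, and their median ratio was 1.39 beside 1.25 for all genes. Without the abundant genes 11 of 40 were higher, beside 18.1%. Over the median gene 9 were higher, beside 12.9%, and 3 (Cap1, Actn4 and Wasf2) lower, beside 12.1%. Of the 6 other Arp2/3 subunits, 3 were higher (Actr3, Arpc4 and Arpc5l), beside 27.9% of all genes. The count was 2 without the abundant genes, beside 18.1%, and 1, Arpc4, over the median gene, beside 12.9%. The highest ratios were those of Rac2, a gene of blood-derived cells (13 and 62 UMIs, 5.22), Arpc4 (12 and 32, 2.92), ezrin, Ezr, which ties filaments to the apical membrane (17 and 40, 2.58), and the capping gene Capg (11 and 24, 2.39). The lowest were Actn4 (0.766), Cap1 (0.807), Wasf2 (0.821) and Gmfg (0.912), all with intervals that held 1. In Etv1+ cells 14 of 56 were higher, beside 20.8%, and 1 lower, beside 4.71%, with 10 higher without the abundant genes (beside 13.5%) and 7 over the median gene (beside 9.81%). In B-like cells 4 of 57 were higher, beside 14.4%, and 1 lower, beside 5.31%. Over the median gene 2 were higher, beside 10.2%, and 3 lower, beside 9.28%. In T-like cells 5 of 59 were higher, beside 18.7%, and 1 lower, beside 4.33%. Over the median gene 2 were higher, beside 10%, and 1 lower, beside 8.28%. The shares in B-like and T-like cells were below those of all genes.

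Over 28 sums of a class in a library with at least 100000 UMIs, the genes most alike to each member in log2(CPM + 10) were compared among 5010 others. Coro1a was most like Arhgdib, Rac2 and Arhgap15 (Pearson r of 0.985, 0.980 and 0.977), and Arpc2 was most like Arpc5, Capza2 and Actr2 (0.981, 0.977 and 0.975). Tmsb10 was nearest to Frg1 (0.969) and the ribosomal genes Rpl13a (0.967) and Rps13 (0.962), and among the members to Arpc3 (0.915). Actb was nearest to Dazap2, Bax and Tmsb4x (0.963, 0.959 and 0.957), and Actg1 to Lrrfip1, Psmb7 and Actb (0.945, 0.893 and 0.890). Pfn1 was nearest to Hmgb2, H2afy and Actr2, Cfl1 to Rap1b, Cdc42 and Psma3, Tmsb4x to Grb2, Arpc2 and Atp6v0e, Arpc1b to Ybx1, H2afy and Tln1, and Arpc3 to Sh3bgrl3, Srgn and Dnajc8. Among the members, Arpc2 and Arpc3 were most alike (0.967) and Actg1 and Coro1a least (0.650). These points share 2 libraries and the split between secretory and other classes, which the r values include.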

How the data were processed

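Per the labels and the study's methods, the authors prepared 10x Chromium libraries, aligned reads to mm10 (GRCm38) and quantified UMIs with Cell Ranger. The submitters' processing notes give Cell Ranger 3.0.1 and Seurat 3. The authors deposited unscaled UMI counts of each gene in each barcode. The annotation used for counting is not given in the sources used here.

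Barcodes under 200 genes or over 5% mitochondrial UMIs were removed, and the libraries were joined by anchor integration and clustered in Seurat 5.3.0 (R 4.3.3), with 2000 variable genes and 30 components at a resolution of 0.3. Etv1+ cells, ducts and stromal and endothelial cells were parted at 0.8. A marker was counted as high in a cluster when its CPM there was 2 or more times its CPM elsewhere, given 5 or more UMIs, and 1 mixed cluster stayed unnamed. UMIs were summed per class and library (scipy 1.17.1, numpy 2.4.6). Levels have exact Poisson, ratios exact conditional binomial and shares Clopper-Pearson intervals. Immune RNA in a class was its pan-immune CPM over that of the immune classes in the same library, times each member's CPM there. With 1 library per condition no test was made. Scrublet (scanpy 1.11.5) called 32 control and 1 IR doublets, too few to rely on, so doublets were kept in the main setting and the 6% highest scores left out as an alternative.

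Genes named are the 10 members, up to 4 pan-immune genes per library by acinar-like level, the 4 highest and 4 lowest wider-list ratios with at least 20 UMIs, and 3 most alike genes per member. Members and lists were chosen with earlier results of these data known. The steps were tested on Poisson counts simulated from the class sums: intervals held the true ratio for 96.2% of 4258 genes in acinar-like cells. The simulation had no spread between cells or mice, so it checks the counting-error formula only.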

Additional observations from a re-analysis of the deposited data

Results flagged for a closer look

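The ratio of IR over control for Actg1 was 1.496 in acinar-like cells and 0.877 in pooled immune classes, with intervals on opposite sides of 1 over all UMIs. Over the median gene the acinar-like ratio of Actg1 was lower, at 1.19996 (1.131 to 1.273). For Tmsb10 the ratios over all UMIs were 1.41 and 0.861. The acinar-like interval of Tmsb10 held 1 without the abundant genes (0.984 to 1.58) and over the median gene (0.896 to 1.43). Immune RNA by the pan-immune list matched 99.6% of the Tmsb10 difference. The share was 79.4% by the T list, 221% by the B list and 228% by Coro1a. The difference between the cell classes was not tested, since each condition had 1 library.

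Barcodes left out for having under 200 genes, 912 in control and 649 in IR, also held a larger share of UMIs of these genes in IR. Summed over the 10 members the ratio was 2.02 (1253 and 2537 CPM, from 2036 and 2118 UMIs), and for the pan-immune list it was 2.72 (82.5 and 224 CPM). These ratios are over all UMIs, and other denominators were not tried for these barcodes. The part of these barcodes in the values of acinar-like droplets was not tested.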

How the results depend on the processing

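No paired analysis was possible because each condition had 1 library. In acinar-like cells the ratio of the summed members was 1.74 with at least 500 genes per cell, 1.48 without abundant genes, 1.35 by the median of gene ratios and 1.60 in cells with no pan-immune UMI. In Etv1+ cells it was 1.43 without abundant genes and 1.34 by the median of gene ratios. In B-like cells it was 1.09 at a mitochondrial limit of 10%, 1.01 with at least 500 genes and, turned in direction, 0.964 by the median of gene ratios, which gave 1.01 in T-like cells. The cause of these changes was not tested. The count of members past the size rule was 6, and 3 at a ratio of at least 2. The immune-matched part of the members in acinar-like cells, in control and IR, was 30.3% and 31.0% at a mitochondrial limit of 10%, 22.2% and 20.7% with at least 500 genes, and 8.78% and 12.9% without the highest doublet scores. It was 10.9% and 24.8% with the B list. It was 30.1% in control when clustering used the actin genes, 18.8% in IR without integration, and 15.4% in control with Coro1a as the gauge. The control ratio of acinar-like to immune cells was 0.0800 at 10% mitochondrial UMIs, 0.0723 with at least 500 genes, 0.0681 without the highest doublet scores and 0.415 without abundant genes. Of 100 values for single members in acinar-like cells, 90 stayed within the interval, 10 moved out of it and 0 turned in direction where the interval left out 1. Coro1a as gauge, and T-like cells with the Gzmm cluster (1.16), were chosen after the data were seen. At this depth, members with few UMIs, such as Coro1a with 25 in control acinar-like cells, have wide intervals.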

Other observations

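Acta2, the smooth muscle actin of myoepithelial cells, was chosen after its values were seen. In Etv1+ cells it had 346 UMIs in control and 103 in IR, 45.3 and 21.5 CPM, a ratio of 0.474 (0.377 to 0.593), while Actb and Actg1 were higher in IR in the same class. That cluster had 7 of 7 myoepithelial markers high, as did its deep part, while its shallow part had 0 of 7. Whether Acta2 and the other actins came from the same cells was not tested. In the cluster that stayed unnamed, which held cycling, plasma and red blood cell genes, the summed members were at 18510.3 CPM in control and 30594 in IR. Abundant genes were 31.9% of its UMIs in control and 12.4% in IR, and without them the sum was at 27173 and 34931 CPM.

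Barcodes left out for over 5% mitochondrial UMIs, 1260 in control and 1858 in IR, had a ratio of 2.08 for the summed members (6279 and 13060 CPM) and of 1.23 for the pan-immune list. In them Actb had a ratio of 2.37 and Actg1 of 1.37.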
